A study of Homo sapiens with 6 samples.

Results

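The signal transducers and activators of transcription (STAT factors) and the Janus kinases (JAK kinases) were followed in RT4 bladder cancer cells depleted of the long non-coding RNA *LEADR*. The 9 genes were taken by name from the 57905 genes of the count and FPKM tables, and comprised 6 STAT genes (*STAT2*, *STAT3*, *STAT4*, *STAT5A*, *STAT5B* and *STAT6*) and 3 kinase genes (*JAK1*, *JAK2* and *TYK2*). RT4 is an established line from a papillary, non-muscle invasive tumour of the bladder. All cells received an siRNA for 48 h. The Scramble group had the non-targeting one and the LEADR-KD group the one against spliced *LEADR*, and both groups were otherwise the same untreated line, with no interferon or other cytokine named in the labels. Poly(A) RNA was sequenced in 3 libraries per group, which keep their group's name with a number from 1 to 3. The study's methods speak of biological replicates, but neither they nor the labels say whether the 3 came from separate cultures, so that a p-value measures the spread between these libraries.

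JAK kinases are bound to the inner part of cytokine and interferon receptors and are activated when a ligand brings the receptor chains together. They phosphorylate STAT factors, which pair up, enter the nucleus and switch on target genes. Among these targets are the SOCS genes, whose products in turn shut the kinases down. Activity in this pathway is set by phosphorylation, which RNA sequencing does not measure, so that the values here are amounts of transcript and not of signalling. In urothelial cells the pathway carries the responses to interferons and to cytokines of the interleukin-6 family.

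The siRNA itself is shown first, because a short match between bases 2 to 8 of an siRNA strand (the seed, in capitals) and the 3′ untranslated region of a transcript can lower that transcript without any part of *LEADR*.
Listed siRNA strand: aACUGGGUgcuuuauauagga
Complement of the listed strand: uCCUAUAUaaagcacccaguu
The 7 bases that pair with the seed of the listed strand, ACCCAGT, occurred in 10.4% of 19366 annotated 3′ untranslated regions (GENCODE on GRCh37, 1 transcript per gene, transcript strand), and those that pair with the seed of the complement, ATATAGG, in 6.79%. None of the 9 genes held ACCCAGT there. *STAT3* alone held ATATAGG, once, on chromosome 17 (GRCh37, minus strand) at chr17:40465342-40465366, shown with the 7 bases in capitals.
*STAT3* site: aaataaacgttATATAGGaaccgtc
Neither of the members that rose (below) held a seed match, and *STAT3* itself did not pass the test. Since a match can lower a transcript, its absence cannot decide why a gene rose. Whether the siRNA acted on transcripts other than *LEADR* was not tested.

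The libraries held between 15706033 and 18960822 counts. The targeted gene, *MIR205HG*, of which *LEADR* is a spliced transcript, had 511, 337 and 346 counts in Scramble and 113, 211 and 101 in LEADR-KD. It fell by 1.47 ± 0.26 (SE) on the log2 scale (edgeR adjusted p = 0.00180). The counts are per gene, so *LEADR* was not told apart from the other transcripts of *MIR205HG*. Mitochondrial genes took 11.9% and 10.8% of the counts of Scramble 1 and LEADR-KD 1 and between 3.06% and 5.73% in the other 4 libraries. All 10 urothelial and epithelial markers were tested, and 2 rose (*CDH1* by 1.11 and *KRT18* by 0.39 on the log2 scale) and 8 did not pass. Their summed level was between 6471 and 7188 CPM (counts scaled to the library size by TMM) in Scramble and 7883 and 8489 CPM in LEADR-KD, with no overlap. Of 10 leukocyte markers 4 were at 0 in every library, *CD3E*, *LYZ* and *LCP2* among them, and *PTPRC* had at most 4 counts. *ITGAM* (4.47 to 8.89 CPM) and *CORO1A* made up most of the sum and were the 2 that were tested. *CORO1A* rose (3.21 to 5.88 CPM, log2 fold change 0.87, edgeR adjusted p = 0.0118) and *ITGAM* did not pass. The summed level of the leukocyte markers was between 8.26 and 12.5 CPM in Scramble and 10.8 and 13.4 CPM in LEADR-KD. Of 7 fibroblast markers 4 were at 0, with a sum between 26.4 and 32.1 CPM in Scramble and 18.4 and 25.7 CPM in LEADR-KD. The 5 endothelial markers found in the table, of 6 listed, consisted mostly of *VWF*, which fell (8.28 to 3.71 CPM), and summed to between 7.28 and 10.4 CPM in Scramble and 2.89 and 4.68 CPM in LEADR-KD. The part of other cell types and of the mitochondrial share in the results was not tested.

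*STAT5B* and *JAK2* rose after *LEADR* knock-down, and the remaining tested members did not pass the test in either direction. Of the 9 genes, 8 passed the filter on low counts and *STAT4* did not. By edgeR's quasi-likelihood test 2 of the 8 rose and 0 fell at an adjusted p under 0.05, against 12.2% of all 14178 tested genes that rose and 12.1% that fell. At an unadjusted p under 0.05 the number that fell was also 0, and DESeq2 called 2 higher and 0 lower. The 6 that did not pass all had a log2 fold change within 0.2 of 0. In 3 of the 8 (*STAT5B*, *JAK2* and *STAT6*) all LEADR-KD libraries lay above all Scramble libraries, and in 0 of the 8 below, against 19.9% and 19.9% of all tested genes. The median log2 fold change was 0.06 over the 8 members and -0.01 over all tested genes.

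**Figure D1:**
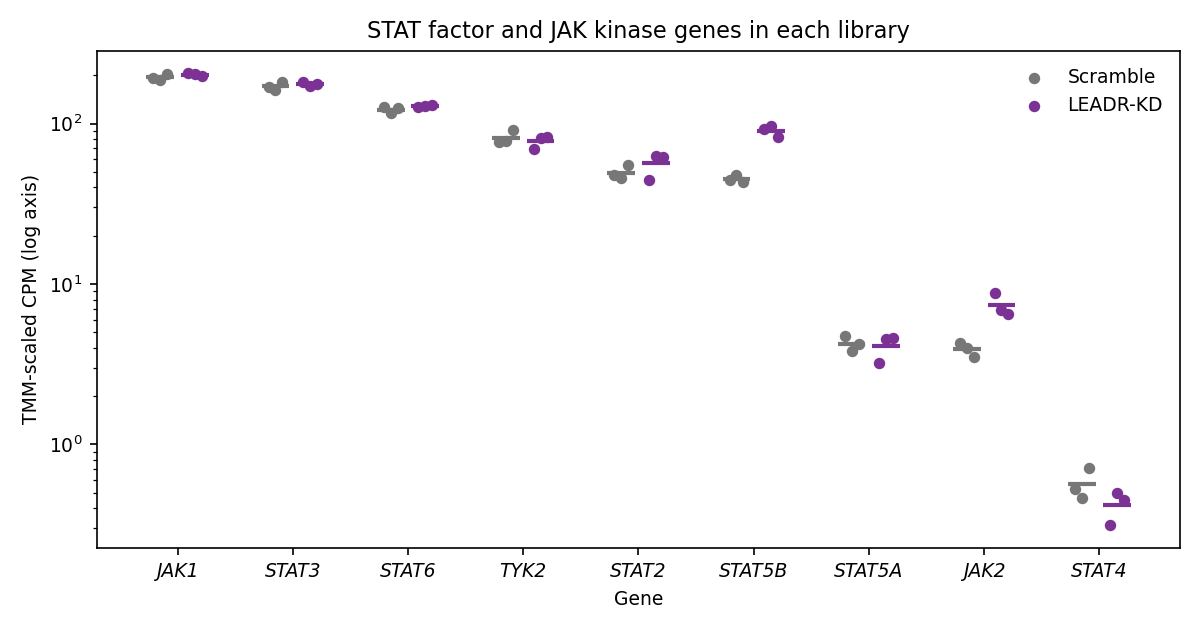
TMM-scaled CPM of the 9 genes (log axis) in the 3 Scramble (grey) and 3 LEADR-KD (purple) libraries, each point a library and each bar the group mean. *STAT5B* and *JAK2* are set apart between the groups, while *STAT4* lies under 1 CPM in every library.

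**Figure D2:**
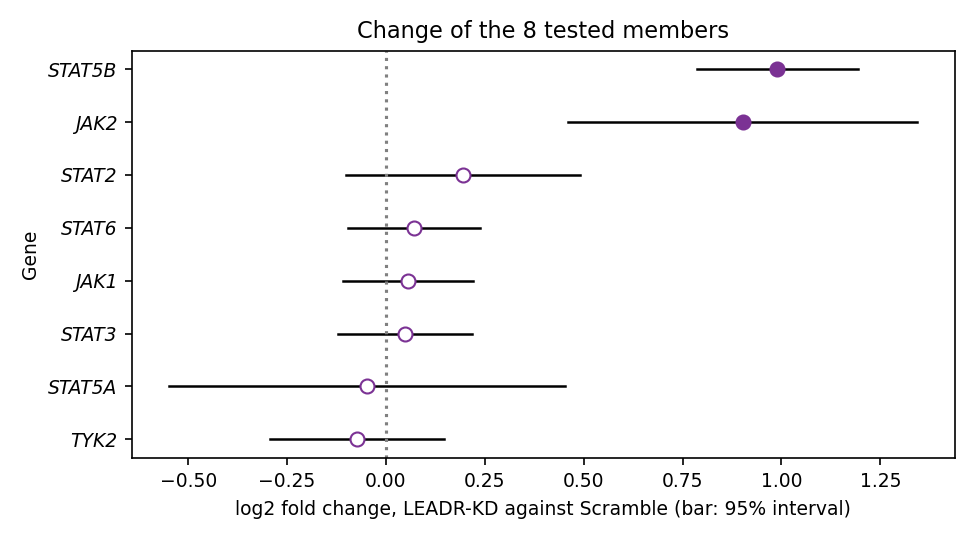
Log2 fold change of the 8 tested members in LEADR-KD against Scramble, with 95% intervals, filled where the edgeR adjusted p was under 0.05. The intervals of *STAT5B* (0.79 to 1.19) and *JAK2* (0.46 to 1.34) lie above 0, and those of the other 6 genes include it.

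Levels of different genes were compared as FPKM, counts per kilobase of gene scaled to the library. In the Scramble libraries the order of the mean levels was *JAK1* (30.5 FPKM), *STAT3* (19.2), *STAT6* (16.6), *TYK2* (12.1), *STAT2* (8.02), *STAT5B* (6.97), *STAT5A* (0.731), *JAK2* (0.643) and *STAT4* (0.133 FPKM). The libraries of *STAT2* and *STAT5B* overlapped, as did those of *STAT5A* and *JAK2*, and every other pair of neighbours in this order was apart. In LEADR-KD the order was the same in all 3 libraries, with *STAT5B* (13.9 FPKM) now above *TYK2* (11.6) and *STAT2* (9.24), and *JAK2* (1.21 FPKM) above *STAT5A* (0.710). Over the 6 libraries the mean FPKM of *JAK1* was higher than that of 89.6% of the tested genes, whereas *JAK2* was above 18.7% and *STAT5A* above 15.4%. *JAK1*, *STAT3*, *STAT6* and *TYK2* were thus well expressed in RT4, while *JAK2*, *STAT5A* and *STAT4* were near the low end. In bulk RNA, a change in the share of cells that express a gene and a change in the amount per cell cannot be told apart.

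*STAT5B* encodes 1 of the 2 STAT5 proteins, which act downstream of growth hormone, prolactin and the cytokines of the common gamma chain. It lies on chromosome 17 (hg19, 40351186 to 40428725, minus strand). It had 756, 936 and 729 counts in Scramble and 1475, 1746 and 1447 in LEADR-KD. Scaled to library size these were 44.5, 48.0 and 43.5 CPM against 92.4, 96.0 and 81.9 CPM. The groups did not overlap, and the lowest LEADR-KD library stood well above the highest Scramble library. The fold change was 1.99 (95% interval 1.72 to 2.29, n = 3 per group) with an edgeR adjusted p = 2.5e-05. The log2 fold change stayed between 0.91 and 1.06 over 16 alternatives, all past the threshold, and was 0.95 without both libraries of high mitochondrial share. RefSeq gives 1 start window for *STAT5B* (250 bases before to 50 after the start), on the minus strand of GRCh38.p14 at chr17:42276342-42276641. It is printed because it is 1 of the 2 member promoters whose gene rose, with each CG pair in capitals.
*STAT5B* start window: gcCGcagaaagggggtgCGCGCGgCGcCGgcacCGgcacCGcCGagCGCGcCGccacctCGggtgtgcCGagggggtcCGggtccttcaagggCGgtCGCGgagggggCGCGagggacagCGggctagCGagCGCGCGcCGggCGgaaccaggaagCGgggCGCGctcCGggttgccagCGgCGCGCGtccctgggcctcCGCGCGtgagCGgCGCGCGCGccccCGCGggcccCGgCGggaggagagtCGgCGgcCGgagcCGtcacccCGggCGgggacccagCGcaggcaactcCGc
Its GC content was 82.0% and it held 55 CG pairs, against medians of 58.7% and 14 over all 35116 windows. The palindrome that STAT dimers bind, TTCNNNGAA, was found in 7.66% of all windows on either strand and in none of the windows of the 9 genes. The form whose spacer is longer by 1 base was found in 6.44% of all windows and, among the members, in 1 of the 3 windows of *STAT5A*. The core that the interferon complex with *STAT2* binds, GAAA and GAAA with 2 bases between, was found in 3.57% of all windows and in none of the members' windows.

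*STAT5A*, the close paralogue, starts 10.8 kb from the start of *STAT5B* and runs the other way on the plus strand (hg19, 40439565 to 40463961). It had 80, 74 and 71 counts in Scramble and 51, 82 and 81 in LEADR-KD. The library with the fewest counts, LEADR-KD 1, lay below all others and the remaining 5 were alike. The log2 fold change was -0.05 with a 95% interval from -0.55 to 0.45 (edgeR adjusted p = 0.906), a fold from 0.684 to 1.37. Its sign turned without Scramble 1 (0.03) or LEADR-KD 1 (0.10). The genes share sequence, and the longest run common to their annotated transcripts was 429 coding bases. Windows of 150 bases of the *STAT5A* transcript were found unaltered in *STAT5B* in 7.73% of cases, and those of *STAT5B* in *STAT5A* in 5.68%. Reads from the shared stretches could have been split between both genes or dropped, and the sources used here do not state how they were counted.

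Within a library the balance of both genes does not depend on the scaling. The log2 ratio of *STAT5B* to *STAT5A* counts was 3.24, 3.66 and 3.36 in Scramble and 4.85, 4.41 and 4.16 in LEADR-KD. The groups did not overlap and differed by 1.05, with a two-sided exact permutation p = 0.1, the smallest that 3 against 3 libraries allow. Per length the ratio was 9.63 ± 1.48 (SD, n = 3) in Scramble and 20.3 ± 5.05 in LEADR-KD. The summed level of both STAT5 genes went from 7.70 ± 0.325 to 14.7 ± 1.08 FPKM, nearly all of it *STAT5B*. Of the summed FPKM of the 6 STAT genes described here, *STAT5B* took 13.5% ± 1.29 in Scramble and 22.7% ± 1.78 in LEADR-KD, and *STAT3* 37.1% ± 0.566 and 32.5% ± 1.72.

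**Figure D3:**
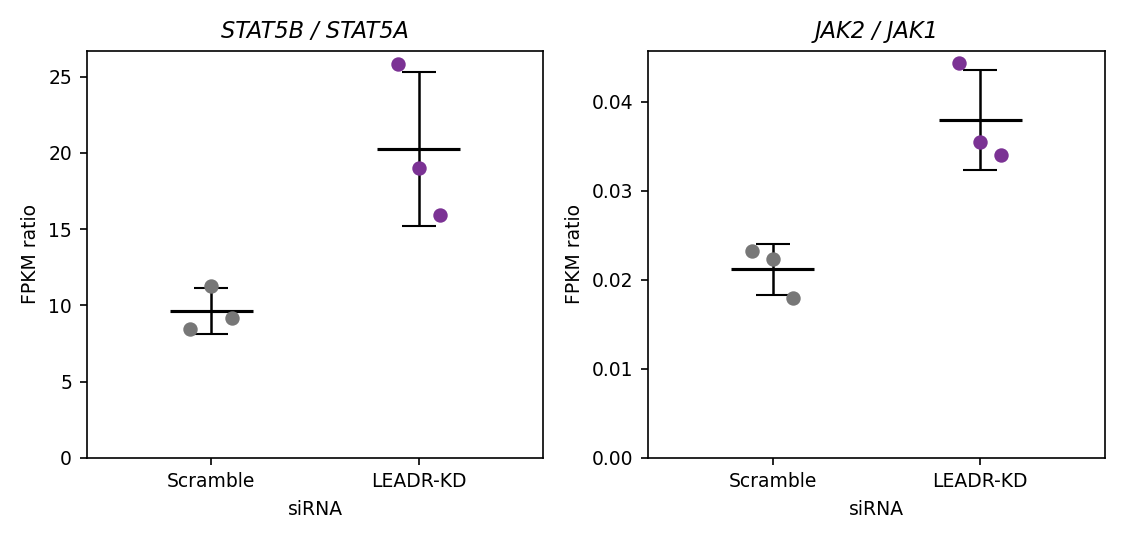
Ratio of *STAT5B* to *STAT5A* (left) and of *JAK2* to *JAK1* (right), in FPKM, in the 3 libraries of each group, each point a library, with the group mean and SD in black. Both ratios are higher in every LEADR-KD library, at 20.3 against 9.63 and 0.0380 against 0.0212 on average.

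*STAT3*, the main factor of interleukin-6 family cytokines, lies on the far side of *STAT5A* (hg19 chromosome 17, 40465342 to 40540586, minus strand). It had 2883, 3139 and 3026 counts in Scramble and 2899, 3127 and 3102 in LEADR-KD. The groups overlapped, and the mean levels were 171 ± 9.79 and 176 ± 4.85 CPM. The log2 fold change was 0.05 with a 95% interval from -0.12 to 0.22 (edgeR adjusted p = 0.693), which does not reach the change of *STAT5B*.

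*STAT6*, the factor of interleukin-4 and interleukin-13 (hg19 chromosome 12, 57489191 to 57525922, minus strand), had 125.9, 115.6 and 124.7 CPM in Scramble and 126.0, 128.3 and 130.5 CPM in LEADR-KD. Every LEADR-KD library was above every Scramble library, but the lowest of the former and the highest of the latter were nearly equal. The log2 fold change of 0.07 (95% interval -0.10 to 0.24) did not pass (edgeR adjusted p = 0.546). *STAT6* overlaps *LRP1* and *NAB2* on the opposite strand, which had between 109 and 345 counts per library against at least 2011 for *STAT6*.

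*STAT2* joins *IRF9* in the complex that drives interferon-stimulated genes (hg19 chromosome 12, 56735381 to 56753939, minus strand). It had 47.9, 45.5 and 55.1 CPM in Scramble and 44.5, 63.2 and 62.1 CPM in LEADR-KD. LEADR-KD 1 was the lowest library of all and the other 2 LEADR-KD libraries were the highest. The log2 fold change was 0.20 with a 95% interval from -0.10 to 0.49 (edgeR adjusted p = 0.332). This call rests on LEADR-KD 1: without it the log2 fold change was 0.34 with an adjusted p = 0.0414, although LEADR-KD 1 shares its high mitochondrial percentage with Scramble 1, and without both the value was 0.31 with an adjusted p = 0.0740. *STAT4*, mainly a factor of lymphocytes (hg19 chromosome 2, 191894302 to 192016322, minus strand), had 9, 9 and 12 counts in Scramble and 5, 9 and 8 in LEADR-KD. It was detected in every library but was too low to be tested.

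*JAK2* is the kinase of the growth hormone, prolactin and erythropoietin receptors and also serves the interferon-gamma receptor. It lies on chromosome 9 (hg19, 4985033 to 5128183, plus strand). It had 73, 78 and 59 counts in Scramble and 140, 126 and 114 in LEADR-KD. These were 4.30, 4.0 and 3.52 CPM against 8.77, 6.93 and 6.46 CPM. All LEADR-KD libraries stood above all Scramble libraries, at levels far below those of *JAK1* in both groups. The fold change was 1.87 (95% interval 1.38 to 2.54, n = 3 per group) with an edgeR adjusted p = 0.00740. The interval is wider than that of *STAT5B*, on fewer than 150 counts per library. The call held in 15 of 16 alternatives. In the limma fits on log2(FPKM + 1), whose pseudocount is larger than the Scramble level of the gene, the log2 difference was 0.43, with an adjusted p = 0.0151 after the filter on low counts and 0.0941 without it. Without both libraries of high mitochondrial share it was 0.82 (edgeR adjusted p = 0.0277). Of the 4 *JAK2* start windows in RefSeq, the one with the highest GC content is printed, as the counterpart of the *STAT5B* window, with CG pairs in capitals (plus strand of GRCh38.p14, chr9:4984836-4985135).
*JAK2* start window: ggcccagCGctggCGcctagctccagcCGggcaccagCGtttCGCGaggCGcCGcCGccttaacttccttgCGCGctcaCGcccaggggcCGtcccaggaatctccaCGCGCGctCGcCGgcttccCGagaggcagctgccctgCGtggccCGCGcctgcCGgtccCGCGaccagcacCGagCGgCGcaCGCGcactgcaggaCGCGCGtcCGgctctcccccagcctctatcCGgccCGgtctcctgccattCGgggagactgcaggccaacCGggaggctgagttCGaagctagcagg
It had a GC content of 73.3% and 39 CG pairs, as the choice of the highest window would favour, and the other 3 windows of *JAK2* had 50.3%, 69.0% and 58.3%. Windows of members that did not pass were as rich, with up to 75.0% for *STAT5A* and 74.7% for *JAK1*.

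*JAK1*, a kinase shared by interferon, gamma chain and interleukin-6 family receptors (hg19 chromosome 1, 65298912 to 65432187, minus strand), was the most abundant member. It had 192, 187 and 205 CPM in Scramble and 206, 203 and 198 CPM in LEADR-KD, so that the groups overlapped. The log2 fold change was 0.06 with a 95% interval from -0.11 to 0.22 (edgeR adjusted p = 0.644). *TYK2*, the partner of *JAK1* at the type I interferon receptor (hg19 chromosome 19, 10461209 to 10491352, minus strand), had 76.6, 77.6 and 91.2 CPM in Scramble and 69.8, 81.3 and 81.9 CPM in LEADR-KD. Its groups overlapped as well, and the log2 fold change of -0.07 (95% interval -0.29 to 0.15) did not pass (edgeR adjusted p = 0.645) and was 0.01 without Scramble 3. The ratio of *JAK2* to *JAK1* in FPKM was 0.0233, 0.0223 and 0.0179 in Scramble and 0.0444, 0.0355 and 0.0340 in LEADR-KD, with no overlap. Of the summed FPKM of the 3 kinases *JAK2* thus took 1.5% ± 0.221 and 2.72% ± 0.469, and *JAK1* 70.5% ± 0.994 and 71.4% ± 1.64.

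*STAT5B* was set against the genes around it, since *STAT5A* and *STAT3* are its neighbours. Of 12 other tested genes within 200 kb, 2 rose, 2 fell and 8 did not pass, against 12.2% of all tested genes that rose and 12.1% that fell. *PTRF*, which encodes a coat protein of caveolae, rose by 1.49 on the log2 scale (1.62 to 4.54 CPM, edgeR adjusted p = 0.00268), and *ATP6V0A1*, a subunit of the proton pump of acid vesicles, by 0.67 (21.9 to 34.8 CPM). *GHDC*, the nearest tested gene on the low-coordinate side, fell by 0.97 (7.94 to 4.04 CPM), and *NKIRAS2*, an inhibitor of NF-κB signalling, fell by 0.51 (54.8 to 38.5 CPM). *DNAJC7*, *KAT2A*, *RAB5C*, *DHX58*, *KCNH4* and *CTD-2132N18.2* did not pass, like *STAT5A* and *STAT3*. Both genes that fell lay on the low-coordinate side of *STAT5B* and both that rose on the other, with genes that did not pass among them on each side. This split rests on few calls and was not tested. The antisense gene that overlaps *STAT5B*, *RP11-358B23.5*, had at most 5 counts in any library, and the sense intronic *AC003104.1* had at most 8. Within 200 kb of *JAK2* only *RCL1* was tested, with a log2 fold change of 0.16 that did not pass.

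**Figure D4:**
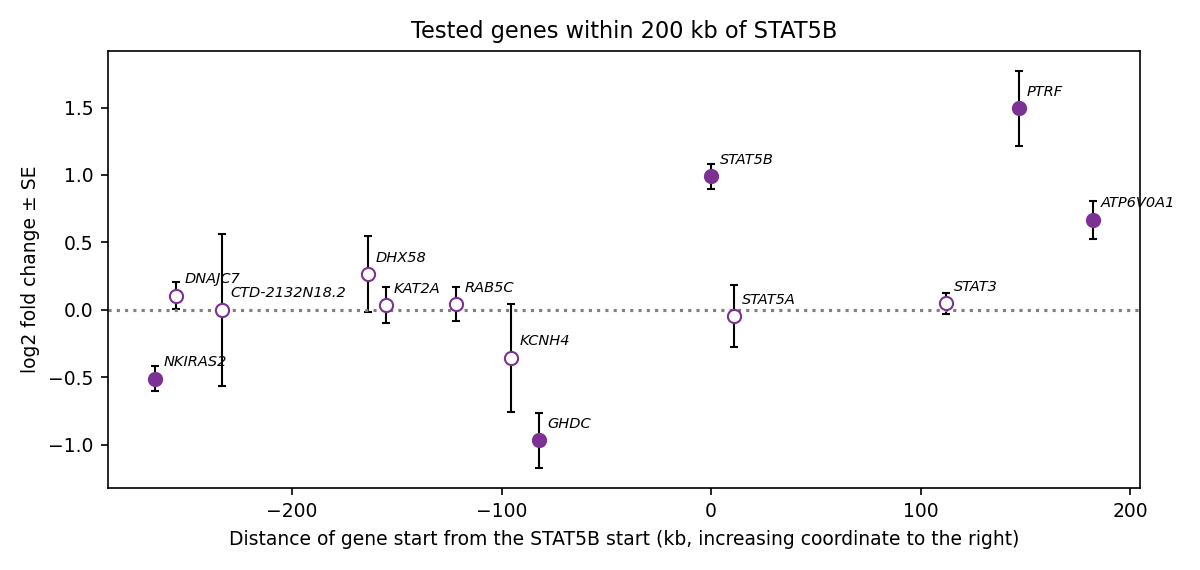
Log2 fold change ± SE in LEADR-KD against Scramble of *STAT5B* and of the 12 other tested genes within 200 kb of it, against the distance of the gene start from the *STAT5B* start in kb, filled where the edgeR adjusted p was under 0.05. *STAT5B* (0.99) stands between *GHDC* (-0.97) and the nearly level *STAT5A* (-0.05).

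Other genes of the pathway were taken from 9 lists of receptors, inhibitors, adaptors and target genes, with 105 genes in all, of which 84 were tested. Of these 20 rose, 9 fell and 55 did not pass, with a median log2 fold change of 0.14. Over all tested genes 12.2% rose and 12.1% fell, with a median of -0.01. Of the 20 pathway genes that rose, 9 were targets of the *STAT2* complex (below). Without Scramble 3 the number of pathway genes that rose was 28, and without LEADR-KD 2 the number that fell was 5. Of the tested pathway genes 14 held the seed match of the listed siRNA strand in the 3′ untranslated region (1 rose, 2 fell). The match of the complement was held by 7 (2 rose, 1 fell). With the match of the listed strand *SH2B3* rose and *IFNAR1* and *IL13RA1* fell. With that of the complement *IL6ST* and *SOS1* rose and *PIM1* fell.

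Among 31 receptor genes 20 were tested, and changes went in both directions. In the interleukin-6 family 1 of 6 tested genes rose, 1 fell and 4 did not pass (median 0.13). *IL6ST*, which encodes the signal-transducing chain gp130 shared by the family, had 74.2, 64.1 and 70.6 CPM in Scramble and 144, 119 and 118 CPM in LEADR-KD. It rose by 0.87 ± 0.10 (SE) on the log2 scale (edgeR adjusted p = 1.05e-04) with no overlap, and its transcript holds the seed match of the siRNA complement. *OSMR*, the partner chain for oncostatin M, fell by 0.56 (27.2 to 18.5 CPM, adjusted p = 0.0117, and 0.0582 without LEADR-KD 2). Of the interferon and interleukin-10 family receptors 0 of 8 rose by edgeR or DESeq2 and 0 had an unadjusted p under 0.05 on the higher side, while 1 fell and 7 did not pass (median -0.12). On the lower side DESeq2 called 2, and 2 had an unadjusted p under 0.05, the other being *IFNGR1*, a chain of the interferon-gamma receptor (log2 fold change -0.50, edgeR adjusted p = 0.0502). *IFNAR1*, a chain of the type I interferon receptor at which *TYK2* sits, fell by 0.38, from 83.0 ± 0.819 to 63.6 ± 6.01 CPM (adjusted p = 0.00961, and 0.0543 without LEADR-KD 2), and holds the seed match of the listed strand. The part of seed matches in these values was not tested.

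Of the common gamma chain and growth hormone type receptors, which signal through STAT5 and *STAT6*, 6 of 13 were tested, and 1 rose, 2 fell and 3 did not pass (median 0.04). *IL7R*, the interleukin-7 receptor chain, went from under 1 CPM in every Scramble library to between 8.09 and 11.8 CPM. *IL2RG*, the common gamma chain with which it pairs, was too low to be tested, at up to 0.294 CPM in Scramble and 1.27 CPM in LEADR-KD. *IL13RA1*, a chain of the interleukin-13 receptor, fell by 0.71 (75.4 to 46.0 CPM, edgeR adjusted p = 7.05e-04) and holds the seed match of the listed strand. *GHR*, the growth hormone receptor that uses *JAK2*, had 4.12, 4.36 and 4.66 CPM in Scramble and 2.82, 2.09 and 0.963 CPM in LEADR-KD. It fell by 1.17 ± 0.33 (SE) on the log2 scale (edgeR adjusted p = 0.0254). Without Scramble 2 or 3 or LEADR-KD 2 or 3 the edgeR adjusted p was 0.0603 to 0.0681. *EPOR*, the erythropoietin receptor that also uses *JAK2*, was at 2.80 ± 0.408 CPM in Scramble and 2.89 ± 0.694 CPM in LEADR-KD. The called receptors of this list thus went in both directions.

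All 18 inhibitors were tested, and 4 rose, 1 fell and 13 did not pass (median 0.09). *SOCS3*, the feedback inhibitor of gp130 signalling, had 2.89, 4.26 and 3.76 CPM in Scramble and 6.20, 7.59 and 7.25 CPM in LEADR-KD (log2 fold change 0.94, edgeR adjusted p = 0.00740). *SOCS2*, the inhibitor of the growth hormone receptor, rose by 0.69 (adjusted p = 0.0405), a call kept without Scramble 2 and lost without any of the other 5 libraries (adjusted p from 0.0617 to 0.120). *SH2B3*, an adaptor that restrains *JAK2*, rose by 0.82 (6.31 to 11.1 CPM), and *SOCS4* by 0.52 (52.6 to 75.5 CPM). *SOCS7* fell by 0.57 (16.8 to 11.3 CPM, edgeR adjusted p = 0.0152, and 0.0564 and 0.0599 without Scramble 2 and LEADR-KD 3). In 7 of the 18 inhibitors, *SOCS3*, *SOCS2* and *SH2B3* among them, every LEADR-KD library lay above every Scramble library. In 4 every LEADR-KD library lay below, against 19.9% of all tested genes above and 19.9% below.

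All 12 adaptors and coactivators were tested, and 3 rose, 0 fell and 9 did not pass (median -0.12, opposite in sign to the called members). By DESeq2 0 fell as well, and 1 was lower at an unadjusted p under 0.05. *SH2B2*, an adaptor that binds *JAK2*, rose by 1.06 (1.38 to 2.87 CPM, edgeR adjusted p = 0.0429), *NMI*, which binds STAT factors, by 0.43 (30.1 to 40.4 CPM), and *SOS1*, which links receptors to Ras, by 0.34 (57.9 to 73.5 CPM). Without 1 library, the call of *SH2B2* was kept only without Scramble 3 (adjusted p from 0.0730 to 0.115 in the other fits), that of *SOS1* only without Scramble 1 or LEADR-KD 3 (0.105 to 0.111 in the others), and that of *NMI* was lost without LEADR-KD 3 (0.0619).

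**Figure D5:**
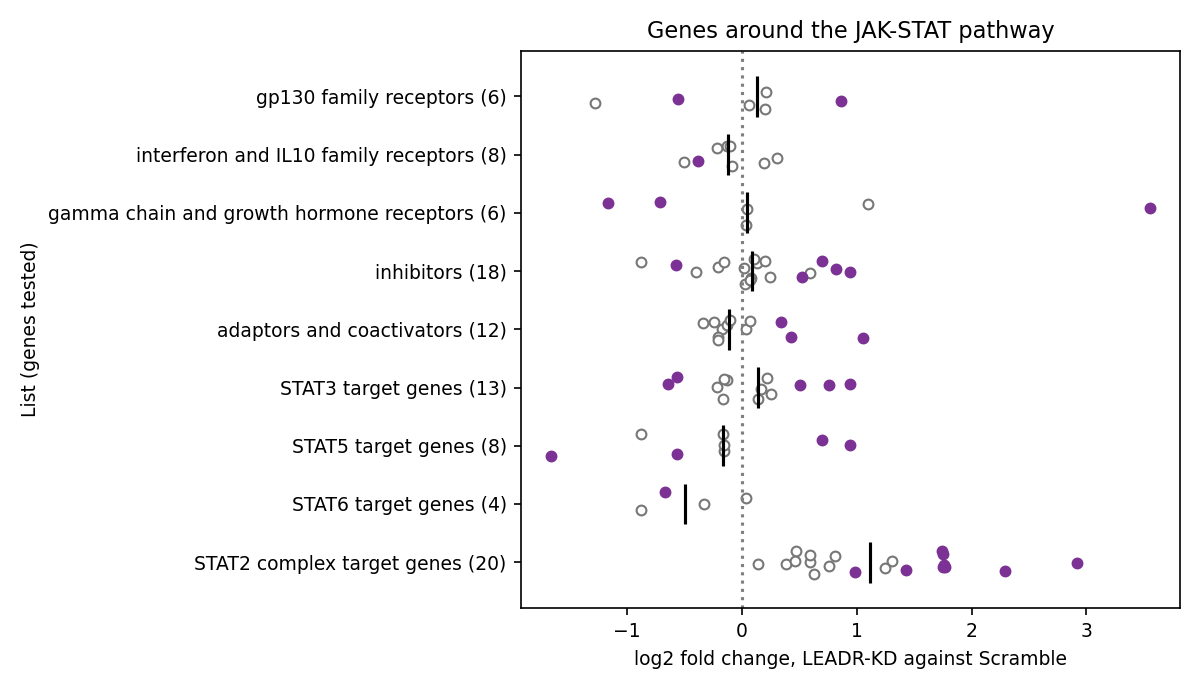
Log2 fold change in LEADR-KD against Scramble of the tested genes of the 9 pathway lists, each point a gene, purple where the edgeR adjusted p was under 0.05, with the list median as a black bar and the number tested in brackets. The medians lie between -0.50 and 0.14, save for the *STAT2* complex targets at 1.11.

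Target genes were listed by the factor that is best known to drive them, and several belong to more than 1 list. Of 13 tested *STAT3* targets 3 rose, 2 fell and 8 did not pass (median 0.14). Besides *SOCS3*, *TIMP1*, an inhibitor of matrix proteases, rose by 0.76 (34.8 to 58.7 CPM, edgeR adjusted p = 4.94e-04) and *JUNB*, a subunit of AP-1, by 0.51 (57.9 to 82.3 CPM). *PIM1*, a survival kinase, fell by 0.56 (93.7 to 63.5 CPM) and the secreted glycoprotein *LRG1* fell by 0.64 (7.38 to 4.73 CPM). The call of *LRG1* was kept only without Scramble 2 (adjusted p from 0.0615 to 0.174 without any of the others), and that of *JUNB* was lost without Scramble 1, LEADR-KD 2 or LEADR-KD 3 (0.0658 to 0.140). Of 8 tested STAT5 targets 2 rose (*SOCS3* and *SOCS2*), 2 fell and 4 did not pass (median -0.16). *PIM2*, a kinase related to *PIM1*, had 3.36, 4.41 and 3.70 CPM in Scramble and 0.689, 1.16 and 1.76 CPM in LEADR-KD and fell by 1.66 (adjusted p = 0.00437). *CISH*, the feedback inhibitor most often used as a readout of STAT5 activity, was at 8.04 ± 0.385 and 7.20 ± 1.29 CPM (log2 fold change -0.16, adjusted p = 0.574). The called STAT5 targets thus went in both directions. Over all tested genes 12.2% rose and 12.1% fell. The call of *SOCS2* held in 1 of 6 fits with 1 library left out, and *SOCS3* and *PIM1* are also on the *STAT3* list. Whether the values of these targets relate to the level of *STAT5B* was not tested.

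Of 11 listed *STAT6* targets 4 were tested, and 0 rose by edgeR or DESeq2 (0 also at an unadjusted p under 0.05), 1 fell and 3 did not pass (median -0.50). *CDH26*, a cadherin of epithelial cells, had 76.7, 64.8 and 74.3 CPM in Scramble and 50.6, 41.1 and 44.2 CPM in LEADR-KD and fell by 0.67 (edgeR adjusted p = 9.15e-04). Of the rest 5 were at 0 in every library.

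The targets of the *STAT2* complex stood apart in their median from the other lists. Of 20 tested genes 9 rose, 0 fell and 11 did not pass, with a median log2 fold change of 1.11. The study reports interferon genes from these same libraries, so the list is not independent evidence of its direction. By DESeq2 0 fell as well, and by edgeR 0 were lower at an unadjusted p under 0.05. The mean log2 CPM of the list was 3.8, 2.90 and 4.72 in Scramble and 4.75, 5.08 and 5.55 in LEADR-KD. The Scramble libraries were far apart, and the highest of them nearly reached the lowest LEADR-KD library. The number that rose was 18 without Scramble 3, the highest. It ranged from 8 to 18 with 1 library left out and from 5 to 18 over the 16 alternatives. *RSAD2* and *IFIT1*, antiviral effectors, rose by 2.91 and 2.29, and *CMPK2*, a nucleotide kinase, and *IFIT3* by 1.76 and 1.77. *IRF9*, the DNA-binding partner of *STAT2*, had 3.18, 0.821 and 4.90 CPM in Scramble and 3.63, 4.07 and 4.53 CPM in LEADR-KD. The Scramble libraries enclosed all LEADR-KD libraries, and the log2 fold change of 0.48 did not pass (adjusted p = 0.491, from 0.02 without Scramble 2 to 1.05 without Scramble 3). Neither *STAT2*, *IRF9*, *JAK1* nor *TYK2*, the genes for the signalling parts upstream of these targets, passed the test.

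The genes whose pattern was most like that of each called member were taken by Pearson's r of log2 CPM over the 6 libraries, among 9427 genes of at least 10 CPM. For *STAT5B* these were *KATNBL1*, a relative of the microtubule-severing protein katanin, *DLC1*, and *CDH1*, which encodes E-cadherin, each at r = 0.998. *CDH1* went from 315 ± 15.7 to 680 ± 58.5 CPM. For *JAK2* they were *UHMK1*, a kinase that acts on splicing factors, *CCDC47*, a protein of the endoplasmic reticulum, and *AQR*, a helicase of the spliceosome, also at r = 0.998. *AQR* rose by 0.31 (edgeR adjusted p = 0.0154, and 0.0611 without Scramble 3). The likeness is broad, since 545 genes reached an r of 0.95 with *STAT5B* and 488 with *JAK2*, and the 6 points fall into the same 2 groups for each of them.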

How the data were processed

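Poly(A) RNA of RT4 cells was sequenced after 48 h with a scramble or a *LEADR* siRNA (3 libraries per group), and each library was assigned by its label. The authors deposited raw counts per gene. The submitters' processing notes name HISAT2 2.0.5, featureCounts 1.5.0-p3 and hg19, whereas Salmon is named in the paper's methods. The libraries were directional, but no source used here states whether counting was strand-aware. The authors also deposited FPKM values, which are the counts divided by gene length and 1 constant per library. A further table holds the log2 fold changes and p-values of their own comparison (DESeq2 1.20.0 in the notes) and was not used here.

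The 9 genes, the pathway lists and the tests were chosen with earlier results of these data known. Counts were scaled by TMM, filtered by filterByExpr (minimum count 10, 14178 of 57905 genes kept) and compared by the quasi-likelihood test of edgeR 4.0.16 (R 4.3.3, no covariate) across all genes, with Benjamini-Hochberg adjustment. A gene rose or fell at an adjusted p under 0.05. The standard error is the log2 fold change divided by the square root of F. The biological coefficient of variation was 12.6%. Values are mean ± SD unless stated. The steps were tested on simulated counts. Named genes were all members, *MIR205HG*, *IRF9*, *IL7R*, *SOCS2*, up to 4 called genes with the largest change per list and direction, tested genes within 200 kb of *STAT5B*, and the 3 genes most correlated with each called member. *EPOR*, *CISH*, *IFNGR1*, *IL2RG*, *LRP1*, *NAB2*, *RCL1*, the cell type markers and the 2 genes inside *STAT5B* were named after their values were seen. Alternatives were DESeq2 1.42.0, size factors or library totals, other filters, limma 3.58.1 on log2 FPKM (pseudocounts 1 and 0.1), a replicate block, and leaving out libraries. Start windows are from RefSeq (GRCh38.p14), and all 9 members had at least 1. Depth limits *JAK2*, *STAT5A* and *STAT4* the most, and intervals cover the spread between these libraries.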

Additional observations from a re-analysis of the deposited data

How the results depend on the processing

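Over all alternatives *STAT5B* kept its direction and its call, and 0 members fell in any. Among all genes 1736 rose and 1719 fell. With library totals 1085 rose and 1553 fell, with limma on log2(FPKM + 1) without a filter 915 and 854, and with 1 library left out 1188 to 1457 and 1142 to 1472. With that limma fit 1 member was called higher, *JAK2* (0.43, adjusted p = 0.0941) and *MIR205HG* (-1.16, adjusted p = 0.0507) lost their calls, and the pathway lists gave 10 higher and 5 lower. With the same pseudocount and the filter on low counts *JAK2* was again 0.43 and passed (adjusted p = 0.0151). With 1 library left out, 2 to 3 members were called higher, and the pathway lists gave 16 to 28 higher and 5 to 9 lower. Without a filter on low counts 32 pathway genes rose. *STAT2* ranged from 0.11 to 0.34 with 1 library left out, *STAT5A* from -0.13 to 0.10 and *TYK2* from -0.12 to 0.01, and *STAT5A* was 0.18 without both libraries numbered 1, so that neither *STAT5A* nor *TYK2* had a settled sign. The log2 ratio of *STAT5B* to *STAT5A* differed between the groups by 0.87 to 1.21. Among the other named genes and the counts per list, 723 values were rated the same, 63 gene values lost the call and 62 counts moved. A gene was the same if it kept its direction and call, and a count if it was equal or close to the main count.

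The replicate numbers were not taken to pair the libraries, since deviations from the group means correlated at 0.522, 0.0121 and 0.598 for the same numbers, and not every library correlated best with its own. With the number as a replicate block, 2 members and 32 pathway genes were called higher, and 2489 genes rose and 2365 fell. Depth limits the low genes: *JAK2* had 59 to 140 counts per library and *STAT5A* 51 to 82.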
